A study of Caenorhabditis elegans with 36 samples.

Results

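The genes described here were the 1321 protein-coding genes of the Caenorhabditis elegans X chromosome that carry a clone-style name, a clone followed by a dot and a number, instead of a gene class name. They were taken from the 31106 features of the count tables by chromosome and by the biotype and symbol of the WBcel235 annotation, and C31H2.4 was left out. The X chromosome held 2667 protein-coding genes, of which 1341 had a class name and 4 had no symbol. The same kind of unnamed gene on chromosomes II to V, 6234 in all, served as the comparison. The median exon length was 902 bases for the X genes and 919 bases for the genes on II to V, and the median number of exons was 5 in both. An exon was shared with another feature in 155 of the X genes (11.7%), against 17.8% of the genes on II to V.

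HRDE-1 is a nuclear Argonaute protein of the C. elegans germ line that binds 22G-RNAs, short antisense RNAs which RNA-dependent RNA polymerases make on target transcripts, and that brings silencing marks to the target loci. WAGO-class 22G-RNAs are made with the help of the Mutator proteins, among them the nucleotidyltransferase MUT-2, whereas CSR-class 22G-RNAs are made on germline-expressed genes and are bound by CSR-1. The X chromosome is kept silent in much of the germ line and carries few genes of germline function.

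Small RNAs from whole worms, 1-day-old adults grown at 20 °C, were sequenced from the lysate (input) and from an anti-FLAG immunoprecipitate (IP) of HRDE-1, with 3 replicates of each in 6 strains. In all strains the hrde-1 gene on chromosome III carried the allele tor125, which adds GFP and 3xFLAG to HRDE-1. The strains were mut-2; hrde-2, with mut-2(ne298) I and hrde-2/enri-3(qe20) V; simr-1 mut-2, with simr-1(cmp36) and mut-2(cmp306) on I; mut-2, with mut-2(ne298); hrde-2, with qe20; simr-1, with cmp36; and wild-type, with the tag alone. HRDE-2 and SIMR-1 are proteins of the SIMR foci of germ granules, and the question was which small RNAs HRDE-1 binds without them. The simr-1 mut-2 strain has another mut-2 allele than the mut-2 strain, so that its comparison with mut-2 is also one between 2 mut-2 alleles. No untagged strain was analysed, and in whole worms fewer cells of a type and less RNA per cell cannot be told apart.

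Libraries held 4275760 to 17448124 counts on genes, so that 10 RPM (counts scaled to a library total of 1000000) stood for 42.8 to 174 counts. The 3 simr-1 inputs had 29.8 to 35.8 RPM on simr-1 itself, against 132 to 179 RPM in the wild-type inputs, in keeping with the label. Small RNA levels on hrde-2 and mut-2 did not separate the mutant from the wild-type inputs in this way and check nothing. Small RNAs on 8 germline marker genes summed to 1085 to 1185 RPM in hrde-2 inputs and to 1108 to 1553 RPM in wild-type inputs, and all 8 exceeded 10 RPM in every condition. Their sum was 2982 to 3133 RPM in hrde-2 IPs and 684 to 795 RPM in wild-type IPs, beside the lower levels of X genes described below. In the same IPs 7 intestine markers summed to 205 to 763 RPM in hrde-2 and 67.3 to 103 RPM in wild-type, with 5 over 10 RPM in hrde-2 and 2 in wild-type. Over the IPs, 5 muscle markers summed to 24.2 to 166 RPM in hrde-2 and 30.5 to 60.2 RPM in wild-type, and 5 neuron markers summed to 48.7 to 49.2 RPM in hrde-2 and 93.2 to 106 RPM in wild-type. The 10 sperm markers overlapped in the IPs and summed to 54.2 to 74.6 RPM in hrde-2 inputs and 18.97 to 29.9 RPM in wild-type inputs, with none over 10 RPM in either strain. The part of these shifts in the results was not tested. Structural RNA genes (ribosomal, transfer, small nuclear and small nucleolar RNA) took 1.68% of counts in wild-type IPs and 18.4% in wild-type inputs, so a share of all counts moves with them. The header inside the wild-type replicate 2 tables carried the number of replicate 1. The values of those tables differed from replicate 1, the labels were kept, and the counts of called genes in comparisons with wild-type were also made without that replicate.

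Small RNAs on the unnamed X genes took a larger share of counts in the wild-type HRDE-1 IP than in its input, and a far smaller share in the hrde-2 IP. The 3 hrde-2 IPs had 0.778%, 0.727% and 0.782% of their counts on these 1321 genes, against 5.62%, 5.94% and 6.08% in the 3 wild-type IPs. The groups were far apart, and the mean was 7.71 times lower in hrde-2. In the inputs of the same lysates the shares were 2.23% ± 0.0349 in hrde-2 and 2.69% ± 0.133 in wild-type (SD, n = 3 each). Among unnamed genes on II to V the IP share was 15.7% in hrde-2 and 24.04% in wild-type, 1.53 times lower. Named protein-coding genes on the X had 1.12% in hrde-2 and 4.94% in wild-type, 4.40 times lower, so the lower share was not particular to the unnamed genes of the X. Library file names with and without the suffix -2 occurred in both strains. The IP with the suffix had 0.778% in hrde-2 and 5.94% in wild-type, and those without it lay between 0.727% and 0.782% in hrde-2 and between 5.62% and 6.08% in wild-type.

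**Figure D1:**
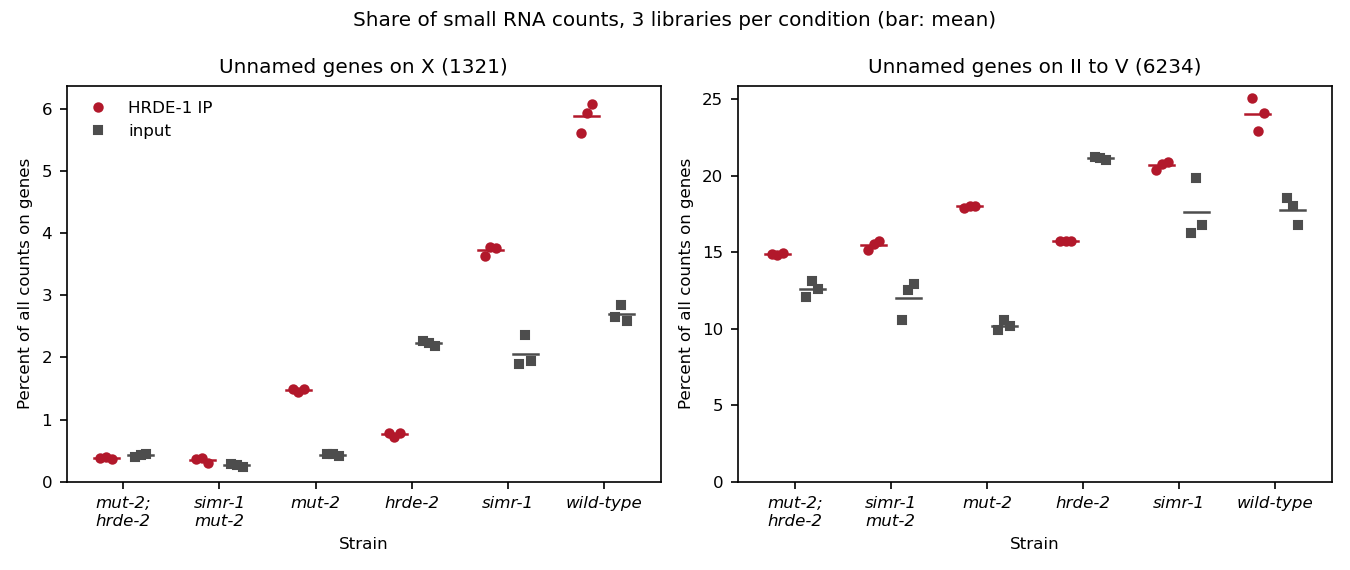
Percent of all counts on genes that fell on the 1321 unnamed X genes (left) and on the 6234 unnamed genes of II to V (right), by strain, with HRDE-1 IPs as red circles, inputs as grey squares and the mean of 3 libraries as a bar. On the X the mean IP share was 0.763% in hrde-2 and 5.88% in wild-type, and on II to V it was 15.7% in hrde-2 and 24.04% in wild-type; the 2 vertical axes differ.

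The ratio of the IP share to the input share, taken within each lysate, was 0.342 ± 0.0163 in hrde-2 and 2.19 ± 0.142 in wild-type for the X genes (SD, n = 3 each). For the unnamed genes on II to V it was 0.745 ± 0.00224 in hrde-2 and 1.36 ± 0.0794 in wild-type, and for named X genes 0.716 ± 0.0471 in hrde-2 and 2.05 ± 0.169 in wild-type. In mut-2 the X genes had only 0.435% ± 0.0144 of input counts, 6.19 times less than the wild-type inputs, but 1.48% ± 0.0255 of IP counts, and the ratio within lysates was 3.401 ± 0.137. That ratio was 0.892 ± 0.0873 in mut-2; hrde-2 and 1.32 ± 0.100 in simr-1 mut-2. The input shares of mut-2; hrde-2 and mut-2 overlapped between replicates, while those of simr-1 mut-2 lay below those of mut-2. In simr-1 the ratio was 1.83 ± 0.192, with 3.73% ± 0.0805 of IP counts and 2.06% ± 0.258 of input counts. With structural RNA genes left out of the totals the ratio of the X genes was 2.23 ± 0.122 in mut-2, 1.48 ± 0.0611 in simr-1, 0.309 ± 0.0167 in hrde-2 and 1.81 ± 0.0159 in wild-type. Among the double mutants it fell to 1.025 ± 0.122 for simr-1 mut-2, whose replicates ran from 0.907 to 1.15. For mut-2; hrde-2 it was 0.705 ± 0.080. Unnamed genes on II to V, with all counts in the totals, had ratios of 1.295 ± 0.114 (simr-1 mut-2) and 1.183 ± 0.0522 (mut-2; hrde-2). The IP share of X genes above input in simr-1 mut-2 thus depended on the total used.

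Most of the 1321 genes had few small RNAs in any condition. Of them, 660 stayed under 1 RPM on average in each of the 12 conditions and 5 had no count in any of the 36 libraries. A mean of 10 RPM or more was reached in some condition by 289 (21.9%), against 2317 (37.2%) of the genes on II to V, and in all 12 conditions by 31 (2.35%), against 800 (12.8%). In the wild-type IP 237 X genes reached 10 RPM, and 17 of the 1321 carried 50% of the counts on these genes. Those 237 genes had a median exon length of 1227 bases, against 831.5 bases for the other X genes, and RPM is not scaled for length.

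Per kilobase of exon, the highest levels in the wild-type IP were those of F02C12.3 (15450 RPM per kb), F59C12.4 (7973), C24H10.4 (4067), T22B2.2 (4002) and Y7A5A.10 (2829), and the same 5 genes led the wild-type input. The annotation gives these genes no class name, and none of their functions is stated here. F02C12.3 (WBGene00008517, chromosome X, 13397323 to 13397710, plus strand, exon length 300 bases) had 240, 397 and 388 RPM in the hrde-2 IPs, against 5118, 3976 and 4813 RPM in the wild-type IPs. Its inputs had 1321, 1639 and 1544 RPM in hrde-2, against 1429, 1296 and 1339 RPM in wild-type. The inputs of the strains overlapped while the IPs lay more than 10-fold apart.

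Each gene's IP was then set against its input within a strain with edgeR's quasi-likelihood test on rounded counts. For a call the difference had to reach 2-fold with a Benjamini-Hochberg adjusted p no higher than 0.05, and the group with the higher level had to average 10 RPM. In wild-type, 198 of the 607 X genes tested were called higher in the IP and 23 lower, beside 17.3% of all genes called higher and 16.8% called lower. Among the genes on II to V, 20.8% were higher and 10.1% lower. The median log2 difference was 1.23 for the X genes tested, 0.61 for II to V and 0.15 for all genes. Scaling to library size alone in place of edgeR's TMM moved the median of all genes to -0.20 and left 156 X genes higher and 26 lower, with 32.7% of all calls in the higher direction in place of 50.7%. Named protein-coding genes on the X had 224 of 815 higher, with a median of 0.92.

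B0272.3 had the largest fitted IP difference in wild-type among the X genes named by rule. The gene encodes a predicted 3-hydroxyacyl-CoA dehydrogenase. It had 289, 197 and 217 RPM in the wild-type IPs, against 36.8, 34.3 and 35.03 RPM in the inputs, a log2 difference of 3.06 (SE 0.188, adjusted p = 3.9e-05, edgeR's quasi-likelihood test). All IPs lay above all inputs. In hrde-2 the gene had 22.8, 20.1 and 24.98 RPM in the IPs and 28.2, 25.4 and 29.6 RPM in the inputs. There each IP lay below each input, and the log2 difference of -0.53 was under the 2-fold limit.

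In the hrde-2 strain 52 of 438 X genes tested were higher in the IP and 93 were lower, beside 26.4% of all genes called higher and 17.3% called lower. The median log2 difference was -1.19 for the X genes, -0.62 for II to V and -0.34 for all genes. A call needed 10 RPM in the higher fraction, which 185 of the 438 X genes and 7867 of 12841 of all genes reached. Among those, 50.3% of X genes were lower and 28.1% higher, against 28.3% and 43.15% of all genes. Such genes on II to V had 31.2% lower and 38.7% higher, and named protein-coding genes on the X 27.4% and 41.6%. Of the 198 X genes higher in the wild-type IP, 65 were called lower than input in the hrde-2 IP, 18 were higher, 108 were not called and 7 were not tested. These 198 genes were picked for a high wild-type IP. The same split was not made for II to V or for all genes, so it shows nothing particular to the X. The change of the IP/input ratio between the strains was tested directly as an interaction. The ratio was lower in hrde-2 than in wild-type for 183 of 629 X genes (29.1%) and higher for 39 (6.20%), beside 18.3% of all genes lower and 29% higher. Among the genes on II to V, 22.5% were lower and 23.1% higher, and by chromosome the lower share ranged from 20.4% on IV to 24.5% on II. The median log2 difference of the ratios was -2.26 for the X genes, -1.05 for II to V and -0.07 for all genes. Named protein-coding genes on the X had 21.3% lower and 12.65% higher, with a median of -1.07, close to that of II to V. These medians include genes that passed the count filter through the wild-type libraries alone. In the fits within a strain 607 X genes were tested in wild-type and 438 in hrde-2, against 3466 and 3080 on II to V. How far the filter set the gap between X and II to V was not tested. Leaving out any 1 replicate of either strain gave 176 to 192 lower and 37 to 40 higher. These data come from the same wild-type lysates as the other comparisons with wild-type.

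**Figure D2:**
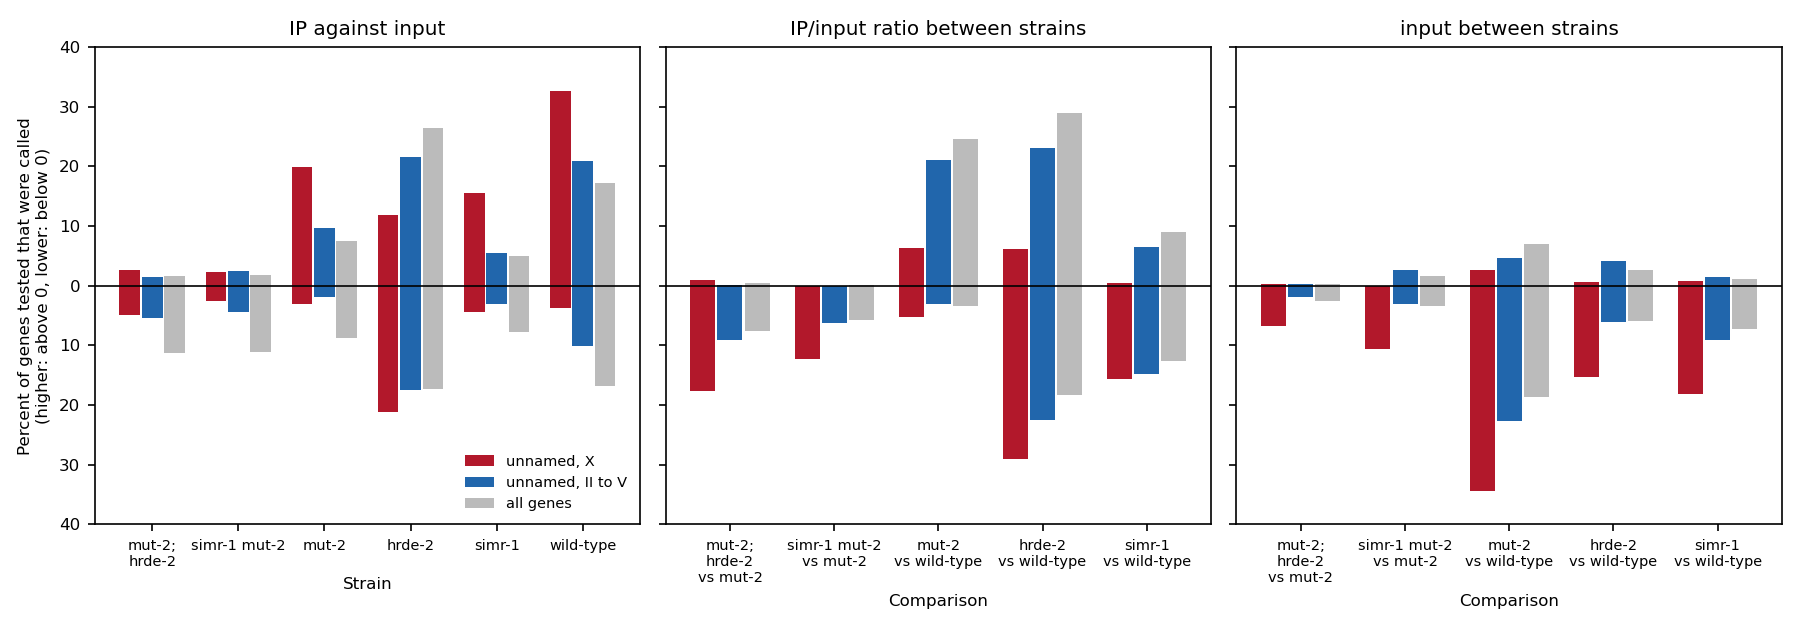
Percent of the genes tested that were called higher (above 0) or lower (below 0) for IP against input in each strain, for the IP/input ratio between strains and for inputs between strains, with unnamed X genes in red, unnamed genes on II to V in blue and all genes in grey. In the IP/input ratio of hrde-2 against wild-type, 29.1% of the X genes were lower and 6.20% higher, and in the mut-2 inputs against wild-type 34.4% were lower and 2.63% higher.

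The X genes whose ratio fell most in hrde-2 differed in the level of their inputs. C24A3.4, the largest fall by the fitted ratio, had 0.830, 1.06 and 1.22 RPM in the hrde-2 IPs, against 20.6, 17.9 and 22.04 RPM in the wild-type IPs. Its inputs were at 4.93, 5.45 and 5.77 RPM in hrde-2, against 4.94, 3.27 and 4.66 RPM in wild-type. The IPs did not overlap and the inputs did, and the ratio fell by 4.83 on the log2 scale (SE 0.364, adjusted p = 3.37e-08, edgeR's quasi-likelihood test). R04A9.9 had 11.6, 8.61 and 7.68 RPM in the hrde-2 IPs, against 127, 252 and 201 RPM in the wild-type IPs, with 103, 77.7 and 76.6 RPM in the hrde-2 inputs, against 68.9, 99.6 and 74.7 RPM in the wild-type inputs. It showed the same pattern at a higher level, with overlapping inputs and separate IPs. Its ratio differed by -4.70 (SE 0.36, adjusted p = 3.77e-08).

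K08H2.5, T25B2.4, C33E10.8 and C17G1.5 followed in size, with log2 differences of -4.66, -4.58, -4.54 and -4.52. Mean levels of these 4 genes were 0.273 to 1.45 RPM in the hrde-2 IP and 16.2 to 45.3 RPM in the wild-type IP. The hrde-2 inputs of T25B2.4 were at 3.35, 3.64 and 2.89 RPM, and those of wild-type at 6.49, 6.89 and 8.27 RPM, so that hrde-2 was the lower strain in both fractions. Its input difference of -0.97 on the log2 scale was under the 2-fold limit. The 5 genes with the highest level per kilobase were picked for their wild-type level, so their falls add no support. Their log2 differences of the ratio were -4.12 for F02C12.3, -4.23 for T22B2.2, -4.10 for C24H10.4, -3.86 for F59C12.4 and -3.60 for Y7A5A.10.

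A smaller set of 39 X genes had a higher ratio in hrde-2 than in wild-type. C46H3.2 had 27.1, 19.9 and 16.8 RPM in the hrde-2 IPs, against 2.34, 1.98 and 1.17 RPM in the wild-type IPs. Its inputs had 6.61, 4.77 and 4.45 RPM in hrde-2, against 4.74, 6.89 and 3.16 RPM in wild-type. The inputs overlapped, every hrde-2 IP was above every wild-type IP, and the ratio rose by 3.20 on the log2 scale (SE 0.433, adjusted p = 1.14e-05, edgeR's quasi-likelihood test). W05H9.2 had 52.3, 33.7 and 32.3 RPM in the hrde-2 IPs, against 2.65, 3.79 and 2.66 RPM in the wild-type IPs, and a log2 difference of the ratio of 3.17 (SE 0.543). One wild-type input of W05H9.2 was high, at 15.9 RPM beside 6.08 and 3.76 RPM. The difference was 2.64 to 3.39 when single replicates were left out. R09F10.8, T18D3.1, C49F5.6 and F23D12.2 rose by 3.06, 2.99, 2.86 and 2.74, and their mean hrde-2 IP levels were 11.3 to 40.4 RPM, against 1.33 to 4.32 RPM in wild-type IPs.

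**Figure D3:**
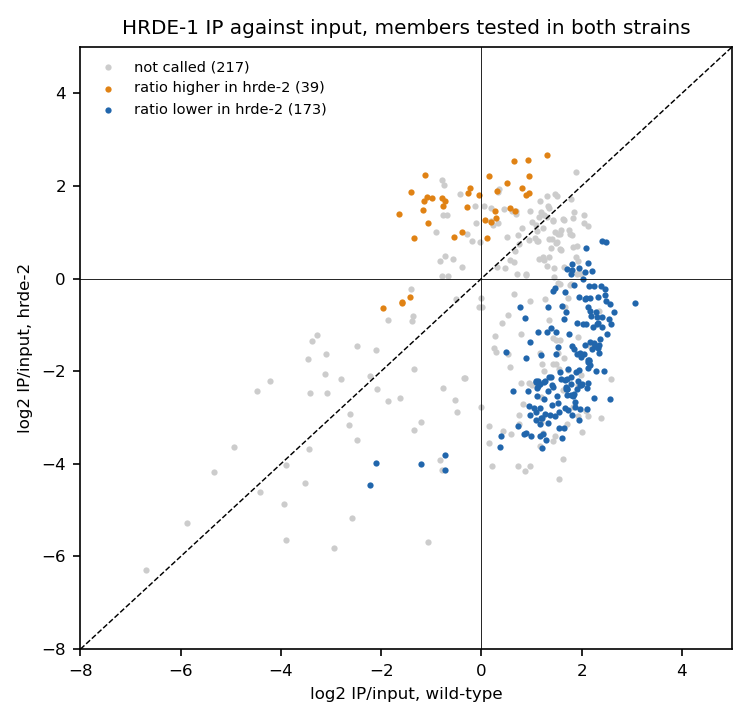
Log2 IP/input of the 429 X genes tested in both strains, with hrde-2 on the vertical axis, wild-type on the horizontal axis and equality as a dashed line. The 173 blue genes, whose ratio was lower in hrde-2, lie mostly to the right of 0 in wild-type, and the 39 orange genes, whose ratio was higher, lie mostly above 0 in hrde-2.

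Of these 6 genes only C46H3.2 also had a called rise of the ratio in mut-2; hrde-2 against mut-2. It had 23.7, 33.7 and 25.7 RPM in mut-2; hrde-2 IPs, against 12.9, 11.7 and 13.5 RPM in mut-2 IPs, and the ratio rose by 1.09 (SE 0.246, adjusted p = 0.00236). Its mut-2 inputs, at 13.9, 11.3 and 12.9 RPM, were above the wild-type inputs by 1.03 on the log2 scale (adjusted p = 0.0123). F31F6.2 and F31F6.3, neighbours on the minus strand with 1160 bases between them, were among the 3 largest IP over input differences in hrde-2. F31F6.3 had 18.0, 17.6 and 16.4 RPM in the hrde-2 IPs, against 2.86, 2.16 and 1.92 RPM in the hrde-2 inputs. Its wild-type IPs, at 22.9, 12.1 and 20.7 RPM, overlapped those of hrde-2, and its wild-type inputs, at 11.2, 7.79 and 9.47 RPM, were the higher ones. F31F6.2 had 21.5, 19.1 and 20.2 RPM in hrde-2 IPs, against 8.18, 6.18 and 9.92 RPM in wild-type IPs, where the groups did not overlap. T27A8.2, the third, had 12.5, 17.6 and 17.2 RPM in hrde-2 IPs and 1.29, 2.14 and 2.01 RPM in wild-type IPs.

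Small RNAs on many X genes were lower in mut-2 inputs than in wild-type inputs. Structural RNA genes took 36.7% of the counts in mut-2 inputs and 18.4% in wild-type inputs. The germline markers summed to 2543 to 2780 RPM in mut-2 inputs and 1108 to 1553 RPM in wild-type inputs, and the intestine markers to 1850 to 2603 RPM in mut-2 and 873 to 1090 RPM in wild-type, and the part of these shifts in the result was not tested. Of 494 X genes tested 170 (34.4%) were lower in mut-2 than in wild-type inputs and 13 (2.63%) were higher, beside 18.6% of all genes lower and 6.90% higher. On II to V 22.7% were lower and 4.57% higher, and by chromosome the lower share ranged from 19.9% on IV to 25.2% on V. The median log2 difference was -2.14 for the X genes, -0.27 for II to V and -0.01 for all genes. Named protein-coding genes on the X had 22.97% lower and 2.80% higher, with a median of -0.64. A gene could pass the count filter through the wild-type inputs alone, and the part of this in the medians was not tested. With library size alone the median of all genes was 0.32 and 168 X genes were lower and 18 higher, and the higher share of all calls moved to 50.6% from 27.04%. All mut-2 libraries carried the file suffix -2 and of the wild-type libraries only those of replicate 2 did. With a term for that suffix 5 X genes were higher, and only 5 were higher without wild-type replicate 1 or without wild-type replicate 3.

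Y81B9A.1 had 0.164, 0.328 and 0.246 RPM in mut-2 inputs, against 293, 188 and 234 RPM in wild-type inputs. With no more than 3 counts in any mut-2 input, it was at least 529-fold lower against a floor of 3 counts per library. K09E3.2 was lower by at least 60.9-fold, with 0, 0.164 and 0 RPM in the mutant inputs, whereas the wild-type inputs had 33.8, 18.2 and 30.4 RPM. F20B6.5 had 1.97, 1.15 and 0.492 RPM in mut-2 inputs, against 394, 250 and 382 RPM in wild-type inputs, and fell by 8.53 on the log2 scale (SE 0.404, adjusted p = 6.63e-08, edgeR's quasi-likelihood test). In all 3 genes the mut-2 IPs were low too, with at most 4.40 RPM. F31A3.5 rose, with 18.2, 22.1 and 18.9 RPM in mut-2 inputs, against 4.33, 7.56 and 3.01 RPM in wild-type inputs (log2 1.64, SE 0.312, adjusted p = 0.00127).

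Small RNAs that remained on X genes in mut-2 worms had a higher level in the IP than the input for 78 of 392 genes tested and lower for 12, beside 7.43% of all genes higher and 8.71% lower. The median log2 difference was 0.32 for the X genes and -0.01 for all genes. In the mut-2 IP 50% of the counts on these genes lay on 7 of the 1321 genes. F02C12.3 had 1702, 1651 and 1640 RPM in the mut-2 IPs, and its mut-2 inputs had 162, 164 and 141 RPM, the largest fitted difference of that strain (log2 3.26, SE 0.0972, adjusted p = 3.42e-10, edgeR's quasi-likelihood test). C44C10.10 had 27.8, 27.9 and 45.6 RPM in the mut-2 IPs and 3.61, 2.13 and 3.93 RPM in the inputs. Its neighbour C44C10.5, on the same strand 319 bases away, had 704, 614 and 686 RPM in the mut-2 IPs and 96.1, 93.9 and 91.2 RPM in the inputs. In both, no input reached the level of any IP.

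Set against wild-type, the IP/input ratio in mut-2 was higher for 39 of 623 X genes and lower for 33, beside 24.6% of all genes higher and 3.39% lower. This split depended on the scaling and on single libraries. DESeq2 called 22 higher and 62 lower, and without wild-type replicate 1 the counts were 11 higher and 84 lower, without wild-type replicate 3 13 higher and 70 lower. F39F10.4 kept a rise in each of these fits, of 2.99 to 3.76 on the log2 scale when replicates were left out. It had 53.4, 58.2 and 39.5 RPM in mut-2 IPs, against 218, 306 and 250 RPM in wild-type IPs, and 9.02, 8.21 and 7.37 RPM in mut-2 inputs, against 401, 713 and 512 RPM in wild-type inputs. Both fractions were lower in mut-2, the input by more.

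The mut-2; hrde-2 double mutant was compared in the same way, and few genes of any kind were higher in its IP. Of 308 X genes tested in mut-2; hrde-2, 8 were called higher in the IP and 15 lower, beside 1.57% of all genes higher and 11.3% lower. Compared with mut-2, the ratio in mut-2; hrde-2 was lower for 72 of 407 X genes (17.7%) and higher for 4, beside 7.57% of all genes lower and 0.504% higher. Leaving out single replicates gave 70 to 73 lower and 3 to 8 higher, with 8 higher without mut-2; hrde-2 replicate 1 or without its replicate 3. T22B2.2 had 24.6, 19.5 and 16.1 RPM in mut-2; hrde-2 IPs, against 1891, 1901 and 1637 RPM in mut-2 IPs. Its inputs had 396, 477 and 550 RPM in mut-2; hrde-2, against 311, 354 and 271 RPM in mut-2. The IPs did not overlap, while the double mutant inputs were the higher ones, and the ratio fell by 6.99 on the log2 scale (SE 0.202, adjusted p = 8.53e-14, edgeR's quasi-likelihood test).

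F02C12.3 behaved alike, with 23.5, 19.8 and 20.1 RPM in mut-2; hrde-2 IPs, against 1702, 1651 and 1640 RPM in mut-2 IPs, and a fall of the ratio of 6.95 on the log2 scale (SE 0.161, adjusted p = 2.29e-14). The 4 X genes with a higher ratio in the double mutant were B0416.5, C46H3.2, F52D10.2 and F10D7.5, the last pair named after their values were seen, with rises of 1.43, 1.09, 1.36 and 1.00 on the log2 scale. B0416.5 had 13.4, 16.9 and 13.1 RPM in mut-2; hrde-2 IPs, against 5.22, 5.70 and 7.45 RPM in mut-2 IPs, without overlap.

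**Figure D4:**
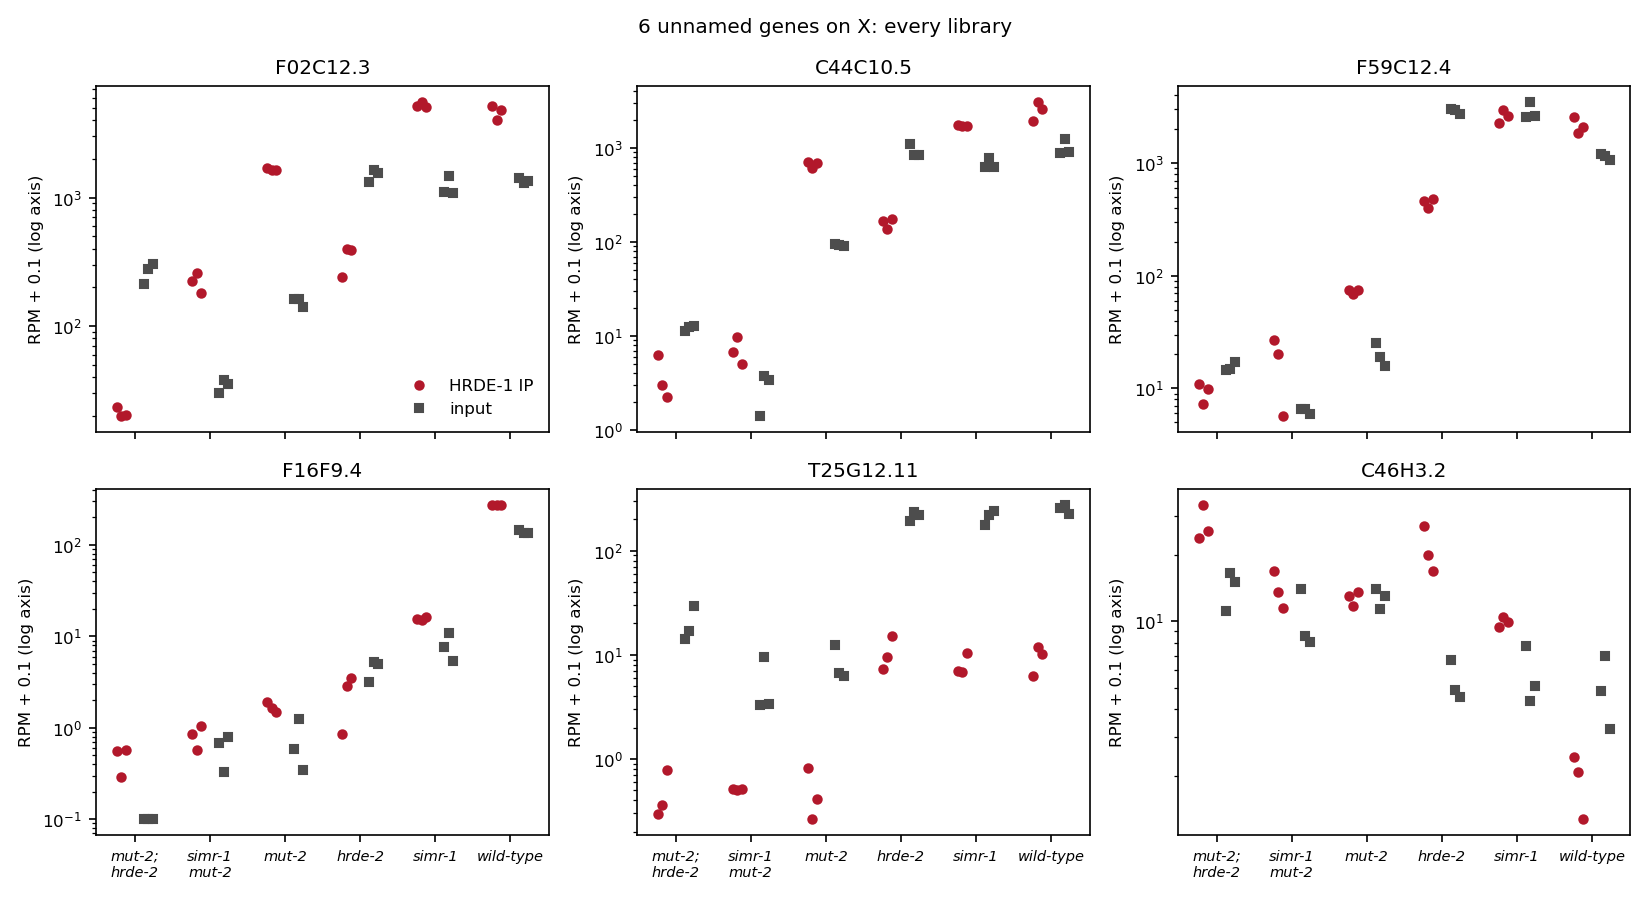
RPM plus 0.1, on log axes, of 6 X genes in every library, with HRDE-1 IPs as red circles and inputs as grey squares, and strains ordered from mut-2; hrde-2 on the left to wild-type on the right. F02C12.3 has about 20 RPM in the mut-2; hrde-2 IPs and at least 1640 RPM in the mut-2 IPs, T25G12.11 lies lower in the IP than in the input of every strain, and C46H3.2 is lowest in the wild-type IPs.

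In simr-1 mut-2 the IP was higher than the input for 7 of 301 X genes and lower for 8, beside 1.86% of all genes higher and 11.2% lower. Without simr-1 mut-2 replicate 1, 11 were higher. The ratio was lower than in mut-2 for 51 of 416 X genes, beside 5.77% of all genes, and higher for 0, beside 0.0304%. With edgeR's quasi-likelihood test 10 X genes were higher at an unadjusted p under 0.05, and DESeq2 also called 0. C33E10.1 had 0.627, 0.524 and 0.657 RPM in simr-1 mut-2 IPs, against 31.6, 34.1 and 36.6 RPM in mut-2 IPs. Its inputs had 1.01, 2.75 and 1.17 RPM in simr-1 mut-2, against 6.56, 7.55 and 6.14 RPM in mut-2. Both fractions separated the strains, the IP by more, and the ratio fell by 3.84 on the log2 scale (SE 0.406, adjusted p = 2.62e-05).

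F02C12.3 did not pass the call for the ratio between these strains. It had 223, 256 and 182 RPM in simr-1 mut-2 IPs, against 1702, 1651 and 1640 RPM in mut-2 IPs, and its inputs fell by 2.49 on the log2 scale, at 29.8, 38.0 and 35.1 RPM in simr-1 mut-2, against 162, 164 and 141 RPM in mut-2. Levels were lower in both fractions and the log2 difference of the ratio was -0.85 (SE 0.17, adjusted p = 0.00406). T22B2.5 had 13.4, 50.4 and 36.4 RPM in the simr-1 mut-2 IPs and 1.45, 7.09 and 9.12 RPM in the inputs, replicate 1 being low in both.

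The inputs of the double mutants differed from mut-2 inputs mostly by further losses. In simr-1 mut-2 34 of 320 X genes were lower and 0 higher, beside 3.37% of all genes lower and 1.63% higher. At an unadjusted p under 0.05 in edgeR's quasi-likelihood test 4 were higher, DESeq2 called 0 higher, and without simr-1 mut-2 replicate 1 53 were lower. In mut-2; hrde-2 22 of 325 were lower and 1 higher, beside 2.59% and 0.220% of all genes. C44C10.5 had 1.30, 3.66 and 3.27 RPM in simr-1 mut-2 inputs and 11.3, 12.4 and 12.8 RPM in mut-2; hrde-2 inputs, against 96.1, 93.9 and 91.2 RPM in mut-2 inputs. No libraries overlapped, and it fell by 5.47 (SE 0.228, adjusted p = 4.29e-06) in simr-1 mut-2 and by 3.23 (SE 0.0847, adjusted p = 4.83e-08) in mut-2; hrde-2 on the log2 scale. The 1 X gene higher in mut-2; hrde-2 inputs was F52D2.6, with 32.3, 43.2 and 64.1 RPM, against 16.4, 14.3 and 11.7 RPM in mut-2 inputs.

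Without SIMR-1 alone, more X genes were higher than lower in the IP. In simr-1 80 of 516 X genes tested were higher in the IP and 23 lower, beside 4.97% of all genes higher and 7.75% lower. The median log2 difference was 0.45 for the X genes, 0.04 for II to V and -0.01 for all genes. With library size alone 115 X genes were higher and 21 lower, and the higher share of all calls was 60.3% in place of 39.1%. Against wild-type the ratio was lower for 100 of 638 X genes and higher for 3, beside 12.6% of all genes lower and 8.95% higher. On II to V 14.8% were lower and 6.46% higher. Of the named protein-coding genes on the X 15.6% were lower and 1.40% higher. The lower share of the unnamed X genes, 15.7%, was near that of both. The all-gene median of this ratio was -0.63, and with library size alone it was 0.23, with 13 X genes lower and 11 higher, while DESeq2 gave 46 lower and 7 higher. Of all genes called, 41.6% were higher in the edgeR fit, 94.3% with library size alone and 70.3% with DESeq2. The number of X genes called in this comparison therefore depended on the scaling, while lower calls outnumbered higher ones in all 3 fits. Without simr-1 replicate 3, 43 X genes were lower, and without wild-type replicate 1, 6 were higher. The 3 genes with a higher ratio were T08D2.8, C52B9.8 and R09F10.8, of which T08D2.8 and C52B9.8 were named after their values were seen.

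The inputs of Y13C8A.1, Y73B3A.11, F46C3.7 and F59C12.4 rose in simr-1 against wild-type. Y13C8A.1 had 214, 299 and 236 RPM in simr-1 inputs, against 75.1, 102 and 73.7 RPM in wild-type inputs (log2 1.65, SE 0.161, adjusted p = 0.000309, edgeR's quasi-likelihood test). Its IPs overlapped, with 29.5, 30.9 and 32.1 RPM in simr-1 and 30.4, 26.2 and 28.5 RPM in wild-type. F46C3.7 had 158, 222 and 188 RPM in simr-1 inputs, against 69.4, 75.0 and 66.4 RPM in wild-type inputs. Its IPs overlapped too, at 27.1, 34.8 and 31.4 RPM in simr-1 and 33.4, 33.2 and 34.2 RPM in wild-type. Both genes thus had more small RNA in the lysate at a like RPM in the IP. The IP/input ratio of F46C3.7 was called lower in simr-1 than in wild-type (log2 -2.41, SE 0.18, adjusted p = 1.61e-05, edgeR's quasi-likelihood test). With library size alone the difference was -1.54, so its size depended on the scaling. F59C12.4 had 2555, 3504 and 2603 RPM in simr-1 inputs and 3002, 2943 and 2731 RPM in hrde-2 inputs, against 1196, 1163 and 1063 RPM in wild-type inputs. It rose by 1.40 (adjusted p = 0.00101) in simr-1 and by 1.50 (adjusted p = 0.000116) in hrde-2 inputs on the log2 scale.

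Losses outnumbered gains among X genes in both of these inputs. In hrde-2 79 of 515 X genes were lower than in wild-type inputs and 3 higher, beside 5.86% of all genes lower and 2.55% higher. In simr-1 94 of 516 were lower and 4 higher, beside 7.34% and 1.06% of all genes. On II to V 6.13% were lower in hrde-2 and 9.06% in simr-1. Named protein-coding genes on the X had 93 of 740 lower and 3 higher in hrde-2, and 94 of 744 lower and 3 higher in simr-1. The losses in the hrde-2 and simr-1 inputs were thus not particular to the unnamed X genes. Among the genes named by rule F16F9.4 had the largest fall in both. It had 3.06, 5.11 and 4.93 RPM in hrde-2 inputs and 7.47, 10.9 and 5.27 RPM in simr-1 inputs, against 147, 134 and 134 RPM in wild-type inputs, with falls of 4.84 (SE 0.204, adjusted p = 8.33e-06) and 4.07 (SE 0.224, adjusted p = 2.64e-05) on the log2 scale. Its IPs were low as well, with 0.747, 2.75 and 3.41 RPM in hrde-2 and 15.6, 14.9 and 16.3 RPM in simr-1, against 275, 270 and 274 RPM in wild-type. The hrde-2 inputs of Y81B9A.1 and F20B6.6 fell likewise, by 4.61 and 4.62 on the log2 scale, whereas those of F02C12.3, C44C10.5 and R04A9.9 overlapped the wild-type inputs.

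W06D11.1 had 0.987, 0.568 and 1.08 RPM in hrde-2 inputs, against 25.3, 26.5 and 27.4 RPM in wild-type inputs, and fell by 4.73 on the log2 scale (SE 0.252, adjusted p = 1.71e-05). Y73B3A.11 had 5.23, 5.34 and 5.05 RPM in hrde-2 inputs but 104, 114 and 98.2 RPM in simr-1 inputs, against 42.8, 35.1 and 36.5 RPM in wild-type inputs. It was lowest without HRDE-2 and highest without SIMR-1, and the groups did not overlap. The log2 difference from wild-type was -2.71 (adjusted p = 2.13e-05) in hrde-2 and 1.52 (adjusted p = 0.00016) in simr-1, and the difference between those mutants was not tested.

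A small set of X genes had small RNAs in the lysate, from high to modest in level, that were low in the IP. T25G12.11 had 6.09, 11.7 and 10.1 RPM in the wild-type IPs, against 254, 276 and 224 RPM in the wild-type inputs (log2 -4.41, SE 0.278, adjusted p = 4.09e-05, edgeR's quasi-likelihood test). In hrde-2 it had 7.22, 9.31 and 15.0 RPM in the IPs and 192, 234 and 218 RPM in the inputs. Its inputs fell by 5.25 on the log2 scale in mut-2, to 12.3, 6.56 and 6.14 RPM. Y102A11A.3 had 2.399, 2.31 and 3.50 RPM in the wild-type IPs and 37.8, 68.9 and 54.4 RPM in the corresponding inputs, and was likewise low in the IPs of hrde-2 and simr-1. F19G12.4 had 0.185, 0.330 and 0.519 RPM in the wild-type IPs and 21.6, 14 and 18.5 RPM in the inputs, and Y7A5A.8, with at most 3 counts in any wild-type IP, was at least 49.3-fold lower there.

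Their inputs differed between strains. The mut-2 inputs of T25G12.11, Y102A11A.3, F19G12.4 and Y7A5A.8 were called lower than wild-type. T25C12.3, with 0.431, 0.659 and 0.584 RPM in the wild-type IPs and 15.7, 18.5 and 13.5 RPM in the inputs, had 26.7, 25.8 and 33.7 RPM in the mut-2 inputs, where it was not called. F52D2.6 rose in the inputs of hrde-2, with 293, 242 and 202 RPM, against 58.0, 105 and 71.0 RPM in wild-type inputs (log2 1.82, SE 0.24, adjusted p = 0.00126). Its IPs overlapped, at 14.7, 10.4 and 15.1 RPM in hrde-2 and 9.84, 15.6 and 13.7 RPM in wild-type. The ratio was higher in mut-2 than in wild-type for ZK402.2, with 18.0, 16.6 and 13.1 RPM in mut-2 IPs, against 14.7, 13.5 and 14.8 RPM in wild-type IPs, and 8.36, 9.03 and 6.88 RPM in mut-2 inputs, against 97.4, 77.0 and 78.9 RPM in wild-type inputs. The IPs overlapped and the inputs did not, and the ratio rose by 3.48 (SE 0.208, adjusted p = 1.37e-06).

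**Figure D5:**
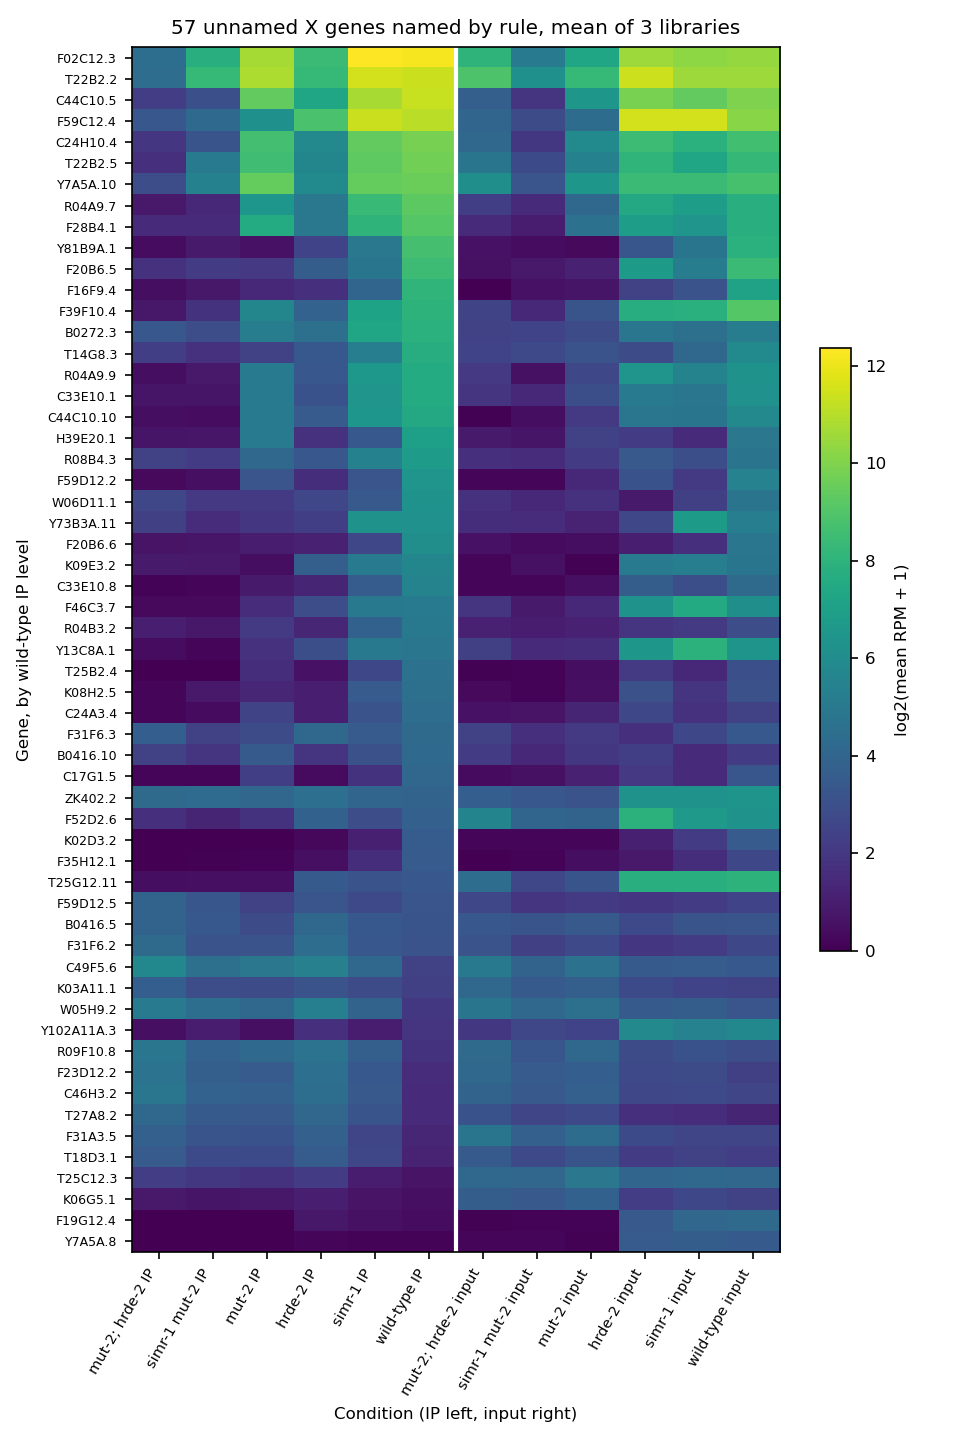
Log2 of mean RPM plus 1 for the 57 X genes named by rule, in rows ordered by their wild-type IP level, with the 6 IP conditions on the left and the 6 input conditions on the right of the white line. F02C12.3, T22B2.2, F59C12.4, C24H10.4 and Y7A5A.10 near the top are darker in the mut-2; hrde-2 and hrde-2 IPs than in the wild-type IP, whereas C46H3.2, W05H9.2 and R09F10.8 near the bottom are brighter in hrde-2 than in wild-type IPs.

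The 31 X genes with at least 10 RPM in all 12 conditions were of more than one kind. Of them 12 had their highest mean in the wild-type IP, 8 in the hrde-2 IP and 3 in the mut-2; hrde-2 IP, and only 1 shared an exon with another feature. M02F4.1 averaged 273.6 RPM in the hrde-2 IP and 2459 RPM in the wild-type IP, with 1727 RPM in hrde-2 inputs and 1459 RPM in wild-type inputs. F02E8.4 was the reverse, with 192 RPM in the hrde-2 IP and 32.4 RPM in the wild-type IP. F23A7.4 and F23A7.8 were highest in the mut-2 IP, at 373 and 307 RPM, against 105 and 95.4 RPM in the wild-type IP. These genes were chosen here for their level in every condition, so their means are given with no test.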

How the data were processed

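Small RNA libraries of inputs and HRDE-1 IPs were made in triplicate for 6 strains. The authors trimmed reads with the FASTX-Toolkit 0.0.13 and Cutadapt 3.4, aligned them with Bowtie2 2.5.0 to WormBase release WS258 and counted them per gene with featureCounts of Subread 2.0.1. The deposited values are estimated counts: a read on several features was split, so 10.4% of non-zero values were not whole, and strand was not used. Reads from overlapping or antisense genes cannot be told apart. Counts were rounded before testing. RPM is the count scaled to 1000000 counts on genes in each library.

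Names and biotypes came from the Ensembl 115 WBcel235 annotation, which held 30911 of the 31106 features. Coordinates are those of the count tables, and only 314 of the 1321 genes had the same start and end in both annotations.

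Genes with at least 10 counts in 3 libraries were tested with edgeR 4.0.16 (quasi-likelihood F test, TMM, R 4.3.3), and p-values were adjusted by Benjamini-Hochberg over all genes tested. A gene could pass this filter through the libraries of a single group. Unless stated otherwise, shares called were of all genes tested, including those too low to reach the 10 RPM limit of a call. Differences in enrichment were the strain by fraction interaction. Alternatives were DESeq2 1.42.0, library size alone, no filter, the replicate block, a term for the file name suffix, leaving out each replicate and leaving out genes with shared exons. When replicates were left out, the filter used as many libraries as the smallest group held, up to 3. The fits were also run on simulated data, and the outcome is not reported here. By the paper's account worms were grown, precipitated and made into libraries 3 times for each strain. The p-values measure the spread between these samples.

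Input and IP of one number came from one lysate, by the protocol in the labels. Their deviations from group means correlated by -0.00297 to 0.523, over 0.1 in 16 of 18 lysates. Numbers of different strains are not paired.

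Named X genes were those without a shared exon that had the 5 highest levels per kilobase in wild-type IP or input, or the largest called differences without overlap of replicates: 6 each way for the hrde-2 ratio, 2 for the other ratios, 3 for inputs and for IP against input in wild-type and hrde-2, and the 2 largest rises of IP against input elsewhere. Genes outside this rule that are named were chosen after their values were seen. The genes, lists and tests were chosen with earlier results of these data known.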

Additional observations from a re-analysis of the deposited data

Results flagged for a closer look

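The strains differed in HRDE-1 enrichment by a test of the difference itself, the interaction of strain and fraction in edgeR's quasi-likelihood fit. The IP/input ratio in hrde-2 against wild-type was higher for 39 X genes and lower for 183, beside 29% of all genes higher and 18.3% lower. In simr-1 against wild-type it was higher for 3 and lower for 100, beside 8.95% and 12.6% of all genes, and DESeq2 gave 7 higher and 46 lower and library size alone 11 higher and 13 lower. In mut-2 against wild-type it was higher for 39 and lower for 33, beside 24.6% and 3.39% of all genes, but DESeq2 gave 22 higher and 62 lower, and 11 were higher and 84 lower without wild-type replicate 1. Against mut-2, the ratio in mut-2; hrde-2 was higher for 4 X genes and lower for 72, beside 0.504% and 7.57% of all genes. In simr-1 mut-2 it was lower for 51, beside 5.77% of all genes. With 3 replicates in each group, single samples were not tested for standing apart.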

How the results depend on the processing

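No named gene's difference changed sign under an alternative. Which direction held more of the X genes called did change in 3 comparisons: the ratio of mut-2 against wild-type (39 higher and 33 lower, against 22 and 62 with DESeq2, 11 and 84 without wild-type replicate 1, 13 and 70 without its replicate 3), IP against input in simr-1 mut-2 (7 and 8, against 12 and 8 with library size alone, and more higher than lower under 5 other alternatives) and in mut-2; hrde-2 (8 and 15, against 17 and 14 with no filter). Counts of X genes that moved more than 1.5 times were as follows. IP against input: higher in mut-2; hrde-2, 17 with no filter; higher in simr-1 mut-2, 12 with library size alone and 12 with no filter, and 5 to 11 without single replicates. Ratio in simr-1 against wild-type: higher for 7 with DESeq2, 11 with library size alone, 8 with no filter, 1 without genes that share exons and 2 to 6 without single replicates; lower for 46, 13 and 38 under the first 3 of these and 43 to 110 without single replicates. Ratio in mut-2 against wild-type: 22 higher and 62 lower with DESeq2, 11 to 44 higher and 27 to 84 lower without single replicates. Ratios against mut-2: 2 higher in mut-2; hrde-2 with library size alone, 3 to 8 without single replicates, and 0 to 1 higher in simr-1 mut-2. Inputs: higher in mut-2, 5 with the suffix term and 5 to 15 without single replicates; higher in mut-2; hrde-2 against mut-2, 2 with library size alone, 2 with no filter and 1 to 2 without single replicates; lower in simr-1 mut-2 against mut-2, 30 to 53. The cause was not tested.

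The replicate block of the lysate left the hrde-2 ratio at 185 lower and 39 higher X genes. The block changed no count of X genes by more than 1.5 times. In comparisons of inputs it joined replicate numbers of different strains, which are not paired, so there it was no block of lysates. With structural RNA genes left out of the denominator, the share of counts on X genes was 2.55% in hrde-2, 2.61% in simr-1, 0.553% in mut-2; hrde-2, 0.355% in simr-1 mut-2, 0.688% in mut-2 and 3.30% in wild-type inputs, and 3.85% in simr-1 and 1.53% in mut-2 IPs. Without genes that share exons it was 0.722% in hrde-2, 3.62% in simr-1, 0.352% in mut-2; hrde-2, 1.43% in mut-2 and 5.59% in wild-type IPs, and 2.17% in hrde-2 and 0.409% in mut-2 inputs. The suffix term could not be estimated in 8 fits. Of the X genes, 660 were under 1 RPM in each condition, where these depths show no difference, and precision rests on 3 replicates.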

Other observations

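The unnamed genes with small RNAs lay in all parts of the X, but fewer in the middle. With the chromosome divided into 3 parts of equal length, 84 of 424 genes in the left part, 58 of 479 in the middle and 95 of 418 in the right part reached 10 RPM in the wild-type IP. All members of the left, middle and right parts held 0.311%, 0.151% and 0.301% of hrde-2 IP counts, and 2.39%, 1.17% and 2.33% of wild-type IP counts. The ratio was lower in hrde-2 than in wild-type for 64 of 215 genes tested on the left, 46 of 179 in the middle and 73 of 235 on the right, and higher for 11, 15 and 13 of them, beside 18.3% of all genes lower and 29% higher.

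AC8.3 and AC8.10, both in the left part of the X and with the same exon length of 1320 bases, had nearly equal means: 84.6 and 82.9 RPM in the hrde-2 IP, against 1300 and 1309 RPM in the wild-type IP. The 2 loci that share the name AC8.4 averaged 6.74 and 7.96 RPM in the hrde-2 IP, against 290.9 and 294.9 RPM in the wild-type IP. Their sequences were not compared here, and counts of copies that share reads cannot be assigned to one of them. Among the genes named by rule, R04A9.9 and R04A9.7 lie 808 bases apart on the minus strand. Both fell in the hrde-2 ratio, by 4.70 and 4.31 on the log2 scale. C33E10.8 and C33E10.1, on opposite strands and 10496 bases apart with 3 features between them, fell by 4.54 and 3.68. Whether neighbours as a set changed alike was not tested.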
